A study of Mus musculus with 6 samples.

Results

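The Rab GTPase genes of marrow endothelium described here are those whose symbol is Rab followed by a number and at most a letter or a letter with a digit, taken from probe sets annotated with that gene alone. There were 58 such genes among 22180 genes with a probe set of their own, and where a gene had several, the brightest by its mean over all arrays was used. Of the 58, 47 passed the filter on dim genes, a mean log2 level at or above 5.07, and 11 did not. The RNA was that of marrow endothelial cells of male C57BL/6J mice, 5000 sorted cells for each of 6 arrays. On 3 arrays the mice were diabetic after fat-rich feeding, and on the other 3 they are labelled control and called nondiabetic here. The labels give no age, and the same diet, 60 kcal% fat for 4 months, is written on all 6 samples, so what the control mice ate is not settled. Nor is it stated that each array stands for its own mouse, and the p-values then measure just the spread among these samples, which can be technical.

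Rab proteins are small GTPases that mark the membranes of the secretory and endocytic routes. Each one cycles between a GTP-bound form on its membrane, where it recruits tethers, motors and fusion factors, and a GDP-bound form that is drawn back into the cytosol. Exchange factors switch them on and GTPase-activating proteins switch them off, while lipid anchors, added by the Rab geranylgeranyl transferase with an escort protein, hold them on membranes. In endothelium they are known for the release of Weibel-Palade bodies, the granules that store von Willebrand factor and P-selectin, and for the uptake and recycling of growth factor receptors, integrins and junction proteins.

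The sorts carried endothelial RNA throughout: all 22 endothelial marker genes tested were above the limit for dim genes, and their mean level per array lay between 8.68 and 9.30. Markers of blood cells were also present, with list means per array of 7.72 to 9.12 for megakaryocytes and platelets and 8.55 to 9.50 for basophils and mast cells. The brightest members of the marker lists, as means over the diabetic and nondiabetic arrays, were Cdh5 of endothelium (10.88 and 10.98), Ppbp of platelets (11.39 and 11.32), Prss34 of basophils (11.39 and 11.29), Ly6c2 of monocytes (11.09 and 10.76) and Mpo of neutrophil precursors (10.71 and 10.45). Those of B cells, lymphocytes with killer functions, erythroid and stromal cells were Ebf1 (8.14 and 8.37), Nkg7 (8.16 and 8.26), Car1 (9.58 and 9.67) and Cxcl12 (9.95 and 10.24). In bulk samples, fewer cells of a type and less RNA per cell cannot be told apart.

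No Rab gene passed the test for a difference between diabetic and nondiabetic cells. The fit was limma over all 13308 tested genes, with p-values adjusted by Benjamini and Hochberg and a threshold of 0.05. It called 1 gene in all, 0.00751% of the tested genes, and 0 of 47 Rab genes, among which 0.997 was the smallest adjusted p. With no adjustment, 5 Rab genes at p under 0.05 lay higher and 0 lower in diabetic cells, 10.6% of the 47, where 4.25% of all tested genes did so in either direction (3.19% higher and 1.07% lower). Without nondiabetic replicate 1, 2 of those 5 Rab genes, Rab32 and Rab35, kept such a p. For 4 Rab genes each diabetic value exceeded each nondiabetic value and for 2 the reverse held, 12.8% of the 47, beside 7.95% of all tested genes (5.28% higher and 2.67% lower). The difference was above 0 for 18 of the 47 and below 0 for 29. This is 38.3% higher, beside 54% of all tested genes. In every alternative processing described below the Rab share also lay under that of all tested genes, by gaps that varied. The shares came nearest at 48.9% and 50.0% with array weights, 47.9% and 51.6% without nondiabetic replicate 3, and 42.6% and 48.6% without diabetic replicate 1. They were farthest apart at 39.0% and 56.8% with the filter at the 60th percentile. The median Rab difference was -0.01 where that of all tested genes was 0.02. These counts are small and were not tested as a set.

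Most Rab genes lay close to no difference, within what these arrays can resolve. The difference, diabetic minus nondiabetic on the log2 scale, was under 0.1 in size for 17 of the 47 and under 0.5 for 43. It was over 0.5 for 4, or 8.51%, beside 5.31% of all tested genes. The 95% interval of the fit, not adjusted for the number of genes, lay inside -1 to 1 for 38 Rab genes, but inside -0.5 to 0.5 for only 14. For the rest, the interval reached past 0.5 in at least 1 direction. The within-group SD of the tested Rab genes ran from 0.03 for Rab40c to 0.68 for Rab1b, with a median of 0.28, and that of all tested genes had a median of 0.24.

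**Figure D1:**
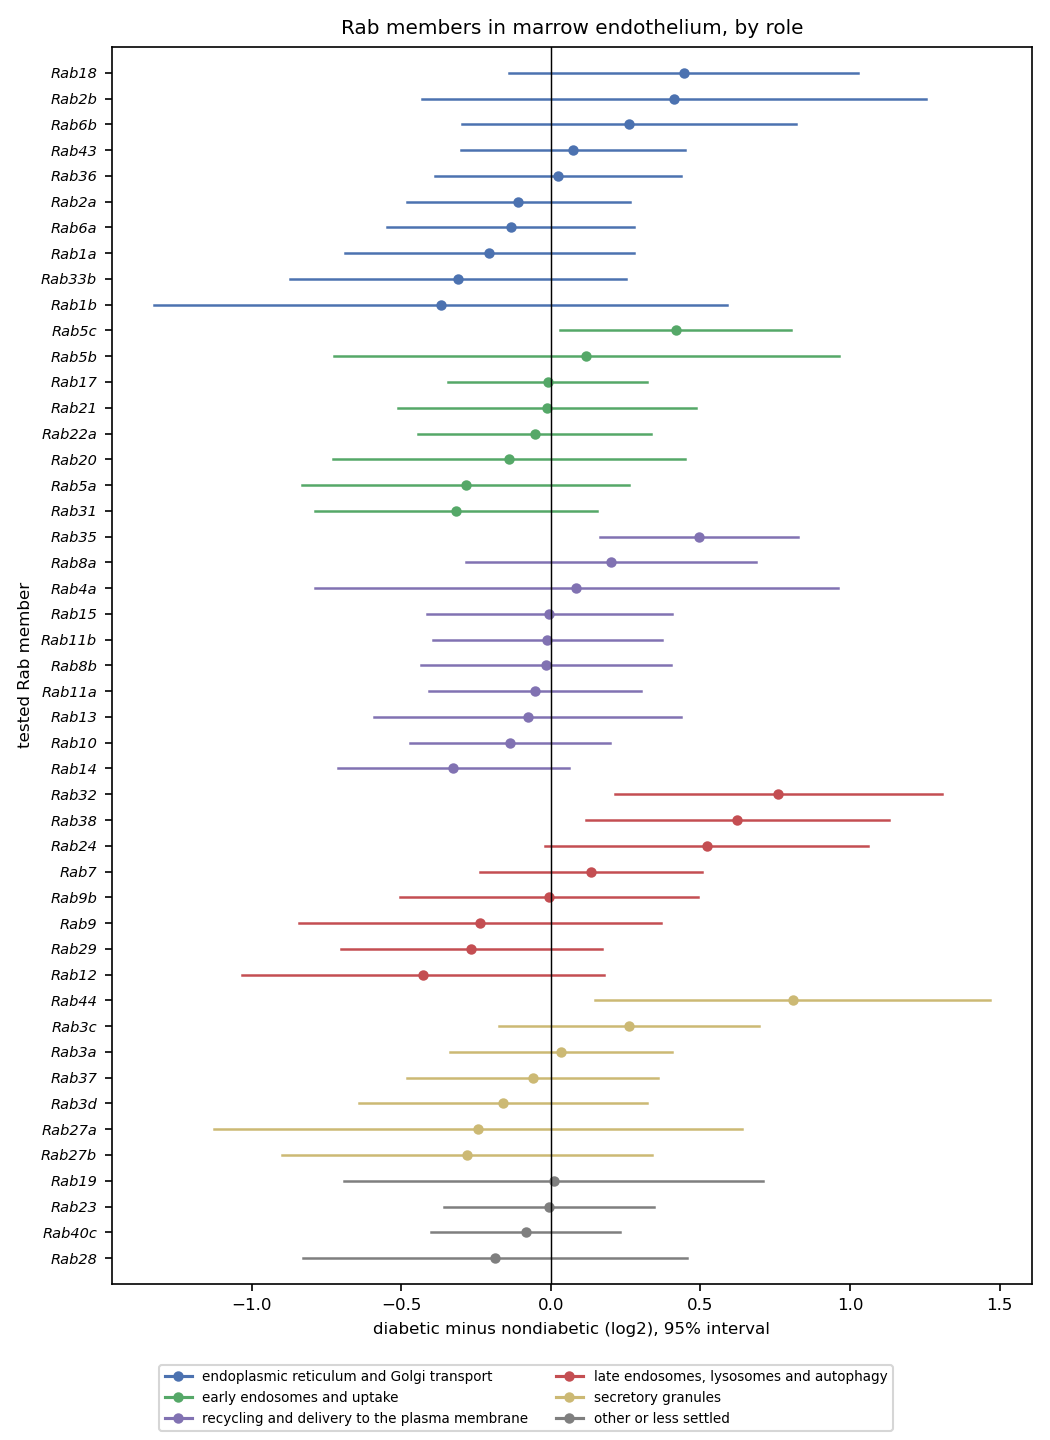
Difference between diabetic and nondiabetic arrays (log2, horizontal axis) for the 47 tested Rab genes, coloured and grouped by role; points are the fitted differences and lines their unadjusted 95% intervals. The intervals of 5 genes, Rab35, Rab32, Rab38, Rab44 and Rab5c, lie above 0 and the other 42 hold 0.

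Among Rab genes of recycling and delivery to the plasma membrane, Rab35 had the smallest p of the family. Rab35 drives fast recycling from endosomes to the cell surface and takes part in cytokinesis. Its level was 6.69, 6.65 and 6.85 on the diabetic arrays and 6.21, 6.29 and 6.21 on the nondiabetic arrays. The groups did not overlap, and each was tight, with means of 6.73 ± 0.10 and 6.24 ± 0.05 (SD, n = 3 each). The difference was 0.49 (SE 0.14, interval 0.16 to 0.82), or 1.41-fold, with a limma adjusted p of 0.997. By p it was number 102 of the 13308 tested genes.

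Several genes of the lists that encode Rab35 exchange factors or effectors, named here after the values were seen, had intervals that held 0. The exchange factor genes Dennd1a, Dennd1b and Dennd1c differed by 0.28 (SE 0.37), 0.19 (SE 0.18) and 0.05 (SE 0.20). The effector genes Micall1, which organises recycling tubules, and Acap2, which inactivates another small GTPase, differed by 0.13 (SE 0.22) and 0.14 (SE 0.17). Ocrl, a lipid phosphatase that Rab35 recruits, differed by -0.12 (SE 0.19).

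Over all 10 tested genes of this role, Rab35 included, 3 were higher and 7 lower, with a median of -0.01. Rab14, which acts between the Golgi and endosomes, stood at 7.20, 6.93 and 6.96 on the diabetic and 7.38, 7.53 and 7.15 on the nondiabetic arrays. Diabetic replicate 1 lay above nondiabetic replicate 3, so the groups overlapped narrowly, and the difference was -0.33 (SE 0.17, interval -0.71 to 0.06). Rab4a, of the rapid recycling route that returns receptors such as the main VEGF receptor to the surface, varied widely in both groups, with 7.27, 7.44 and 6.36 against 6.87, 6.33 and 7.62. Its difference of 0.08 had an interval of -0.79 to 0.96. Rab11a and Rab11b, of the slower recycling endosome, were steadier. In diabetic against nondiabetic cells (SD, n = 3 each), Rab11a had 8.90 ± 0.18 against 8.95 ± 0.03 and Rab11b 9.79 ± 0.22 against 9.80 ± 0.08, and their intervals were -0.41 to 0.30 and -0.39 to 0.37. Rab13, which brings proteins to cell junctions, differed by -0.08 (interval -0.59 to 0.44), with 6.81, 6.35 and 6.90 against 6.63, 7.13 and 6.53.

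Rab10, which delivers vesicles of glucose transporters and basement membrane proteins, is named after its values were seen, because its groups did not overlap. It stood at 9.26, 9.25 and 9.08 against 9.27, 9.41 and 9.32, a gap of under 0.1 between the nearest arrays. The difference was -0.14 (SE 0.14, interval -0.47 to 0.20). With the deposited values quantile normalized again or centred on the array medians, the Rab10 groups overlapped.

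Among Rab genes of late endosomes, lysosomes and autophagy, 4 of 8 tested were higher and 4 lower, with a median of 0.06, and 3 differed by over 0.5. Rab32 and Rab38 are close relatives that build lysosome-related organelles, such as melanosomes and the dense granules of platelets. Rab32 stood at 6.68, 6.93 and 7.17 on the diabetic and 6.21, 6.55 and 5.74 on the nondiabetic arrays. The groups did not overlap, and the difference was 0.76 (SE 0.24, interval 0.21 to 1.31), or 1.69-fold. Rab38 stood at 7.27, 7.39 and 7.67 against 6.40, 6.96 and 7.10. Here too every diabetic array lay above every nondiabetic array, and the difference was 0.62 (SE 0.22, interval 0.12 to 1.13), or 1.54-fold. Both had a limma adjusted p of 0.997. Nondiabetic replicate 1 was the lowest array for Rab38 and nondiabetic replicate 3 for Rab32, so the lowest array was not the same for both genes.

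The exchange factor of Rab32 and Rab38 is a complex of the proteins encoded by Hps1 and Hps4, named here after the values were seen. Hps1 stood at 6.57, 6.41 and 6.51 against 6.09, 6.02 and 6.38, so its groups did not overlap, and the difference was 0.33 (SE 0.16, interval -0.04 to 0.70). Hps4 differed by 0.31 (SE 0.19, interval -0.14 to 0.76), and its groups overlapped. Rab29, the third member of this subfamily, which acts at the Golgi and lysosome with the kinase Lrrk2, lay the other way at -0.27 (SE 0.19), with 6.81, 6.41 and 6.48 against 6.58, 6.84 and 7.08. Lrrk2 itself differed by -0.28 (SE 0.21).

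Markers of macrophages and neutrophils, cells that use lysosome-related granules, lay higher in the same diabetic arrays. Of 12 tested monocyte and macrophage genes 10 were higher, or 83.3% beside 54% of all tested genes. The list mean per array was 7.55 to 7.79 in the diabetic and 7.21 to 7.38 in the nondiabetic group. Another 3 genes of that list were dim. All 10 tested neutrophil genes were higher, with list means of 7.61 to 7.71 and 7.10 to 7.42, and 4 further genes were dim. All 11 megakaryocyte and platelet genes were higher too, with a median of 0.22. Their list mean was highest, 9.12, on diabetic replicate 3, also the highest array for Rab32 and Rab38. It was next highest, 8.64, on nondiabetic replicate 3, and at most 8.05 on diabetic replicates 1 and 2. On nondiabetic replicate 3, however, Rab32 was at its lowest, 5.74, and Rab38, at 7.10, lay below every diabetic array. Of 7 tested B cell genes 4 were higher, or 57.1%, with a median of 0.46. The groups did not overlap for 3 of these few genes, or 42.9% beside 7.95% of all tested genes. Ebf1, the brightest of the list, lay the other way at -0.23. In the other marker lists, 7 genes of endothelium were higher and 15 lower, with a median of -0.05. The counts were 8 and 2 for basophils and mast cells and 6 and 4 for stromal and mural cells. They were 4 and 5 for erythroid cells and 1 and 4 for T and killer lymphocytes. The part of any of these cells in the Rab32 and Rab38 values was not tested.

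The other genes of this role were these. Rab7, which directs late endosomes to lysosomes, stood at 10.43, 10.27 and 10.06 against 10.04, 10.24 and 10.08, a difference of 0.13 (interval -0.24 to 0.51). Rab24, linked to late steps of autophagy, stood at 8.56, 8.30 and 7.86 against 7.61, 7.47 and 8.07. Diabetic replicate 3 lay below nondiabetic replicate 3, and the difference was 0.52 (SE 0.23, interval -0.02 to 1.06). Rab12, which sends receptors from recycling endosomes to lysosomes, stood at 7.08, 6.77 and 6.51 against 6.69, 7.33 and 7.62. Its groups overlapped through nondiabetic replicate 1, and the difference was -0.43 (SE 0.26, interval -1.03 to 0.18). Rab9 and Rab9b differed by -0.24 and -0.01.

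**Figure D2:**
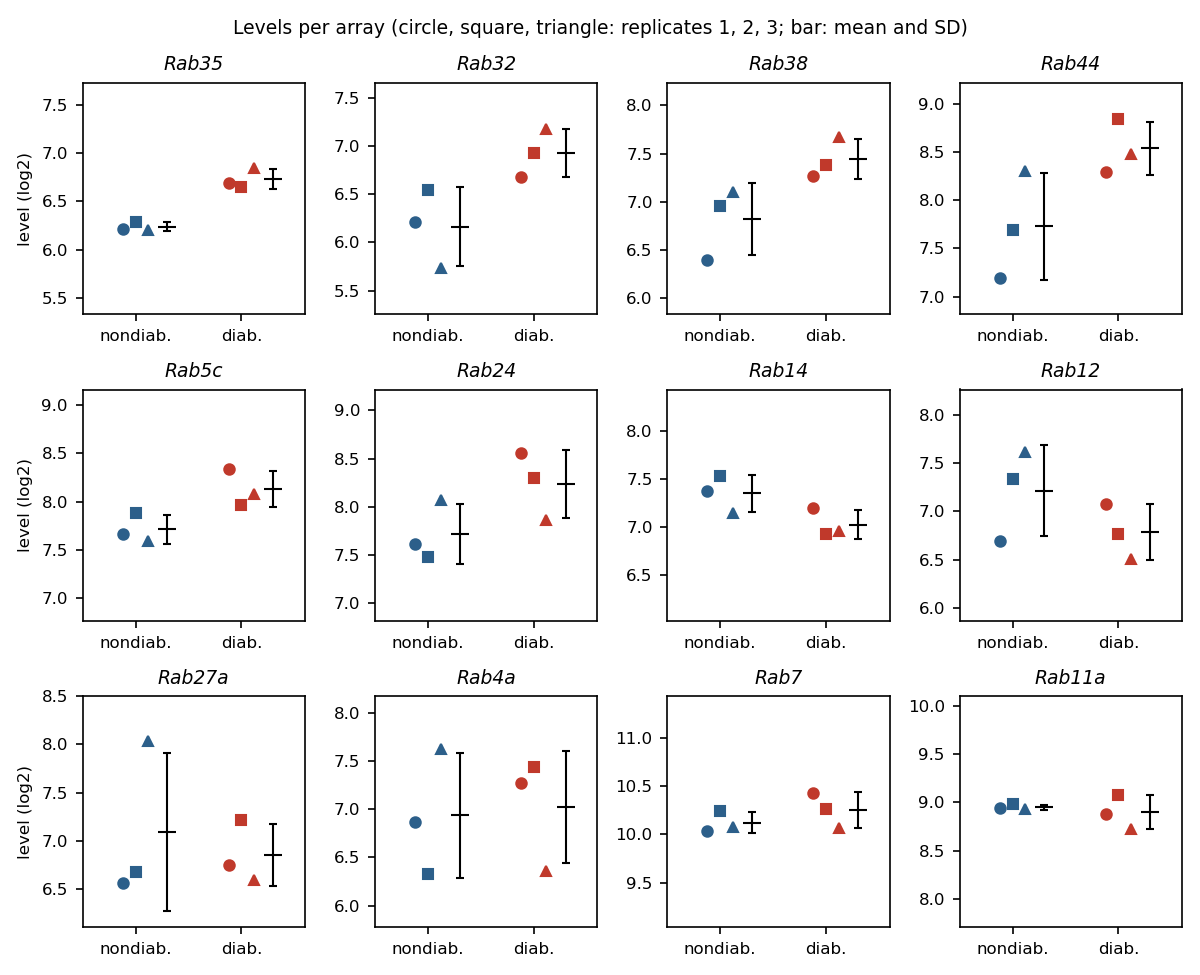
Log2 level on each array for 12 Rab genes, with nondiabetic arrays in blue and diabetic arrays in red; circles, squares and triangles are replicates 1, 2 and 3, bars are the mean and SD of each group, and every panel spans the same height. The groups are apart for Rab35, Rab32, Rab38 and Rab5c, while Rab44, Rab27a and Rab4a vary by over 1 within the nondiabetic group.

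Among the genes of early endosomes, Rab5c alone lay higher at an unadjusted p under 0.05 in the limma fit. The Rab5 proteins govern fusion of incoming vesicles with early endosomes. Rab5c stood at 8.33, 7.97 and 8.08 on the diabetic and 7.67, 7.88 and 7.59 on the nondiabetic arrays. The groups were apart by less than 0.1, and the difference was 0.42 (SE 0.17, interval 0.03 to 0.80). Of its relatives, Rab5a differed by -0.28 (SE 0.24, interval -0.83 to 0.26), with 7.39, 7.14 and 6.69 against 7.40, 7.66 and 7.01, and Rab5b by 0.12 (SE 0.37). Of the 8 tested genes of this role 2 were higher and 6 lower, with a median of -0.03. Rab31, which carries cargo between the Golgi and endosomes, stood at 6.45, 5.87 and 6.33 against 6.79, 6.37 and 6.45, a difference of -0.32 (SE 0.20). Rab21, which moves integrins, had means of 9.36 ± 0.18 and 9.38 ± 0.37 (SD, n = 3 each) and differed by -0.01, with an interval of -0.51 to 0.49.

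Among the genes of secretory granules, Rab44 had the largest difference of the tested Rab genes. Rab44 is a large, atypical Rab known from mast cells and osteoclasts. It stood at 8.30, 8.84 and 8.48 against 7.19, 7.69 and 8.30, and the difference was 0.81 (SE 0.29, interval 0.15 to 1.47), or 1.75-fold. Nondiabetic replicate 3 reached the level of diabetic replicate 1, so the groups overlapped. The list mean of the basophil and mast cell markers per array was 8.83, 9.08 and 9.22 on the diabetic and 8.90, 8.55 and 9.50 on the nondiabetic arrays, highest on nondiabetic replicate 3. The part of these cells in the Rab44 values was not tested.

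Rab27a and Rab3d, which are known from Weibel-Palade bodies, did not pass. Rab27a, which holds these granules at the cell periphery, stood at 6.74, 7.21 and 6.59 against 6.57, 6.68 and 8.04. A single array, nondiabetic replicate 3, stood far above the others, so the difference of -0.24 had an interval of -1.13 to 0.64, and without that array the difference was 0.23. Rab3d stood at 6.78, 6.15 and 6.38 against 6.58, 6.38 and 6.83, a difference of -0.16 (interval -0.64 to 0.32). Rab27b, a close relative of Rab27a known from platelets, stood at 5.92, 6.16 and 6.93 against 6.60, 6.41 and 6.83, a difference of -0.28 (SE 0.27). Its highest array in each group was replicate 3. The megakaryocyte and platelet list was highest on the same arrays, with means of at most 8.05 on diabetic replicates 1 and 2, 9.12 on diabetic replicate 3 and 7.96, 7.72 and 8.64 in the nondiabetic group. The part of platelet RNA in the Rab27b values was not tested.

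In the genes of transport between the endoplasmic reticulum and the Golgi, 5 of 10 tested were higher and 5 lower. Groups that did not overlap numbered 0, beside 7.95% of all tested genes, and so few genes cannot tell these shares apart. Rab1a, which carries vesicles from the endoplasmic reticulum to the Golgi, stood at 10.98, 10.74 and 10.38 against 11.07, 11.02 and 10.62, a difference of -0.21 (interval -0.69 to 0.28). Rab18, which acts at lipid droplets and the endoplasmic reticulum, stood at 8.49, 8.15 and 7.64 against 7.38, 7.98 and 7.59, and its difference of 0.44 (SE 0.25) had an interval of -0.14 to 1.03. Rab1b and Rab2b had the widest spreads here, with intervals of -1.33 to 0.59 and -0.43 to 1.25. In the last group, of other or less settled roles, Rab40c, which links to a ubiquitin ligase, had groups that did not overlap but a difference of only -0.08. Its levels were 6.48, 6.54 and 6.56 against 6.62, 6.59 and 6.63, and the interval was -0.40 to 0.23. With quantile normalization again the Rab40c groups overlapped.

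Seen by array, diabetic replicate 3 lay low for much of the family. It was the lowest of the 6 arrays for 16 of 47 Rab genes, or 34.0%, beside 20.9% of all tested genes. Its median Rab deviation from the gene means was -0.17, where diabetic replicate 1 had 0.13 and the other arrays lay between -0.09 and 0.05. Rab genes highest on diabetic replicate 3, as Rab32, Rab38 and Rab35 were, numbered 9, as on diabetic replicate 1. That is 19.1% on each, beside 15.8% of all tested genes on diabetic replicate 3 and 29.9% on diabetic replicate 1. The mean level over the 47 genes was 7.40, 7.28 and 7.20 on the diabetic and 7.19, 7.29 and 7.32 on the nondiabetic arrays, so the groups overlapped. Over all tested genes it was 6.84, 6.71 and 6.69 against 6.70, 6.73 and 6.70, so the high level on diabetic replicate 1 was not particular to Rab genes.

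**Figure D3:**
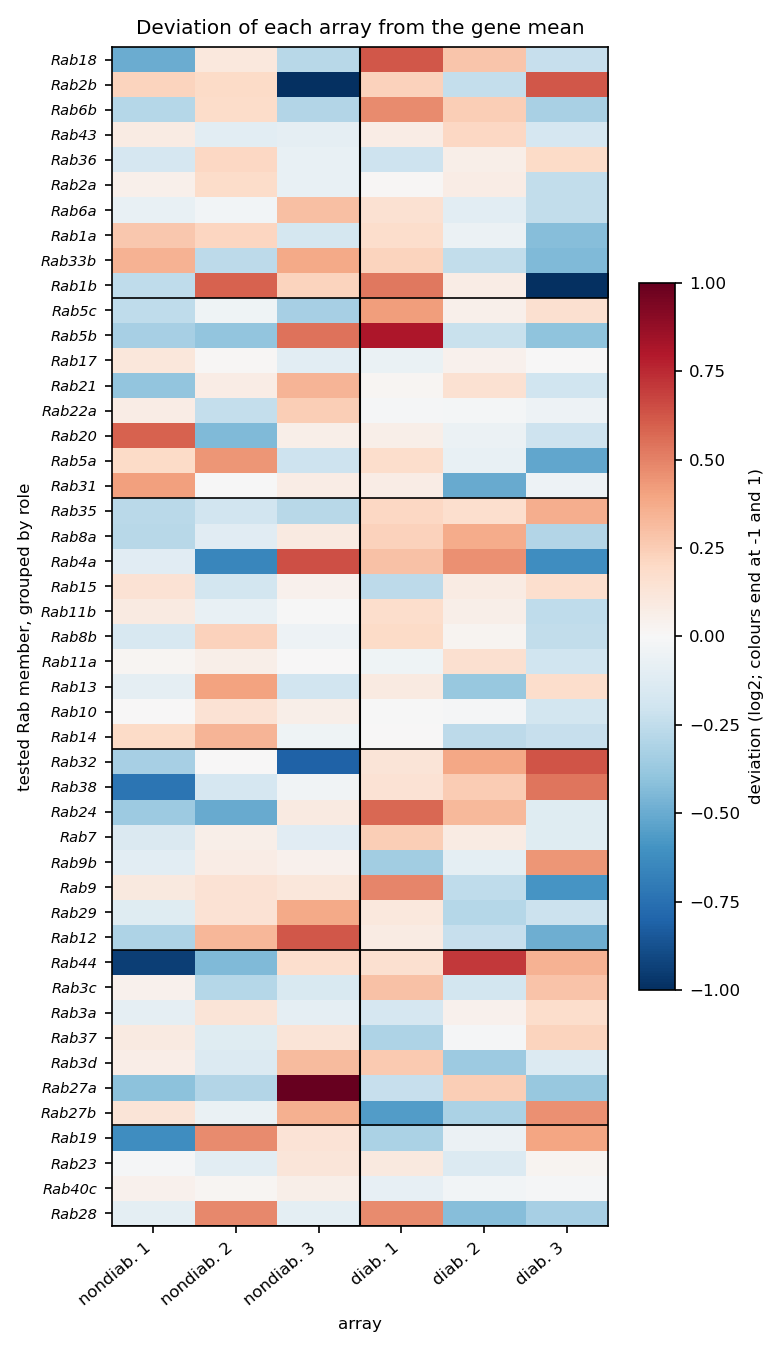
Deviation of each array from the gene's mean over 6 arrays (log2, colour) for the 47 tested Rab genes in rows, grouped by role between the lines, with nondiabetic arrays on the left and diabetic arrays on the right. Rab32, Rab38 and Rab35 are above their mean on all 3 diabetic arrays, and diabetic replicate 3 is the lowest array for 16 genes.

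Related genes were set against each other within arrays, since a pair on the same array shares its RNA. The tested Rab genes held 10 subfamilies with at least 2 tested members, 9 by shared number and the set of Rab29, Rab32 and Rab38, which gave 16 pairs. The Rab29 level minus the Rab32 level was -0.36 ± 0.43 in diabetic and 0.67 ± 0.58 in nondiabetic cells (SD, n = 3 each). The Rab29 level minus the Rab38 level was -0.87 ± 0.37 and 0.02 ± 0.16, and that of Rab5a minus Rab5c was -1.06 ± 0.29 and -0.35 ± 0.19. These 3 and Rab3c minus Rab3d, at 1.44 ± 0.20 and 1.01 ± 0.23, were the pairs in which the groups did not overlap. The share among pairs of other genes was not computed. Rab32, Rab38 and Rab5c had groups apart on their own, and Rab29 is in both of the first pairs, so the pairs partly restate the results above. By a two-sided exact permutation test each of the 4 pairs had p = 0.1, the smallest that 3 arrays against 3 can give, and p = 0.4 after adjustment over the 16 pairs. With so few arrays no pair could have passed at 0.05, so this test cannot decide whether any pair differed.

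The sequences before the start sites are shown for the genes with an unadjusted p under 0.05 and groups that did not overlap, as far as the RefSeq promoter table (GRCm38.p6) holds them; Rab38 is named only. Each is the 250 bases before the start, 5′ to 3′ on the gene's strand, with capitals marking the GC box GGGCGG or its reverse complement CCGCCC. Rab35 is at chr5:115631737-115631986 (+), Rab32 at chr10:10558208-10558457 (-) and Rab5c at chr11:100738216-100738465 (-).
Rab35: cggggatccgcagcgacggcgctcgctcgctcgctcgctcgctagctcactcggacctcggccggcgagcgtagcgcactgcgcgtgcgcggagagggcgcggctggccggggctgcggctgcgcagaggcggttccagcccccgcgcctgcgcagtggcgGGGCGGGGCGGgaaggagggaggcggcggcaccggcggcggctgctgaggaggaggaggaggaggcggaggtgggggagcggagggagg
Rab32: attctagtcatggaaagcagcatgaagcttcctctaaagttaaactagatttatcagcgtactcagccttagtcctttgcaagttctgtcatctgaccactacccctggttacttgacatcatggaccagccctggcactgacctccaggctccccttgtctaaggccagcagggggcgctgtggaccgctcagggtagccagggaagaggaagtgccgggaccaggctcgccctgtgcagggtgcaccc
Rab5c: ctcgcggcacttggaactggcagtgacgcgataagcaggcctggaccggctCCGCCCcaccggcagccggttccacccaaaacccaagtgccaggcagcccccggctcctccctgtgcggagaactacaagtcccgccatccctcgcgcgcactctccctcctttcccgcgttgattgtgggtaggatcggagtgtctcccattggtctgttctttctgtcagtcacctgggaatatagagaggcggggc
Rab35 holds 2 GC boxes that share a base, Rab5c holds 1 and Rab32 holds 0, and the E-box CACGTG, which reads the same on both strands, is in none of the 3. The G and C content was 78.8% for Rab35, 55.6% for Rab32 and 63.2% for Rab5c. Of 58 Rab genes 47 had an entry, with 59 windows. The GC box on either strand was in 66.1% of the Rab windows and 32.7% of all 32851 windows of that length, and the E-box in 8.47% and 6.02%. The median G and C content was 60.0% in Rab windows and 52.4% in all. A match is a description of the letters and not of binding.

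Genes that regulate or serve Rab proteins were read from lists of exchange factors, GTPase-activating proteins, lipid anchoring and effectors. Rabggtb, the beta subunit of the Rab geranylgeranyl transferase, was the only gene called in the whole fit, and it fell by 4.43 on the log2 scale (limma adjusted p = 0.000189), from 7.75 ± 0.24 to 3.32 ± 0.26 (SD, n = 3 each), a diabetic level under the limit for dim genes. The gene passed the filter through its nondiabetic level alone, and the size of the fall rests on that dim level, so it is not a measured ratio of RNA amounts. With no filter its limma adjusted p was 0.000844. Without nondiabetic replicate 3 its mean fell below that limit and it was not tested. Its alpha subunit gene Rabggta differed by -0.01 (SE 0.28) and the escort protein gene Chm by 0.20 (SE 0.20). The other probe set that names Rabggtb, shared with a small nucleolar RNA, differed by -0.29 (SE 0.22), so the 2 probe sets disagreed. In the same list of 6 genes, Rabac1, which helps load Rab proteins on membranes, had means of 8.82 ± 0.27 and 8.40 ± 0.15 (SD, n = 3 each) and differed by 0.42 (SE 0.19), and Gdi2, which extracts GDP-bound Rab proteins from membranes, differed by 0.09 (SE 0.18).

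Of 36 tested exchange factor genes 25 were higher and 11 lower in diabetic cells, or 69.4% higher beside 54% of all tested genes, with a median of 0.09. None had an unadjusted limma p under 0.05, and for 4 of them, Dennd4a, Rin3, Rab3ip and Hps1, the groups did not overlap, which is 11.1% beside 7.95% of all tested genes. Dennd4a, an exchange factor of Rab10, differed by 0.44 (SE 0.20) and Rin3, which acts on Rab5 proteins and Rab31, by 0.35 (SE 0.16). Rab3ip, an exchange factor of Rab8 proteins, named with Hps1 after the values were seen, differed by 0.33 (SE 0.16).

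Of 34 tested genes of GTPase-activating proteins 15 were higher and 19 lower, with a median of -0.03. Tbc1d9 differed by 0.49 (SE 0.17), without overlap between the groups, at a level of 5.59 against 5.10, near the limit for dim genes. Rab3gap2, part of a complex that inactivates Rab3 proteins and activates Rab18, differed by -0.55 (SE 0.22). Usp6nl, which inactivates Rab5 proteins and is named after the values were seen, also differed by -0.55 (SE 0.23). These 3 were the genes of the list with an unadjusted limma p under 0.05, or 8.82% beside 4.25% of all tested genes, and 0 passed the adjusted test. Tbc1d20, which inactivates Rab1 proteins, differed by 0.01 (SE 0.20).

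Of 32 tested effector genes of endosomes and the Golgi 19 were higher and 13 lower, with a median of 0.03 and a range of -0.26 to 0.30. Osbpl1a, which binds Rab7, differed by 0.27 (SE 0.16), and the retromer genes Vps26a and Vps35 by 0.30 (SE 0.20) and 0.09 (SE 0.19). Of 22 tested genes of secretory granules and Weibel-Palade bodies 10 were higher and 12 lower, with a median of -0.02 and a range of -0.32 to 0.62. Selp, the P-selectin stored in these granules, differed by 0.62 (SE 0.19), with 8.45, 7.95 and 8.09 against 7.34, 7.55 and 7.71. It was the only gene of that list with an unadjusted limma p under 0.05, or 4.55% of the list, near the 4.25% of all tested genes. The granule cargo gene Vwf, named after the values were seen, differed by 0.09 (SE 0.29), the granule membrane gene Cd63 by 0.05 (SE 0.17) and the motor gene Myo7a by 0.28 (SE 0.19). The part of platelet RNA in the Selp, Vwf and Cd63 values was not tested. Of 5 tested kinase and phosphatase genes 1 was higher and 4 lower, with -0.27 (SE 0.19) for Pink1 and -0.09 (SE 0.20) for Map3k7.

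**Figure D4:**
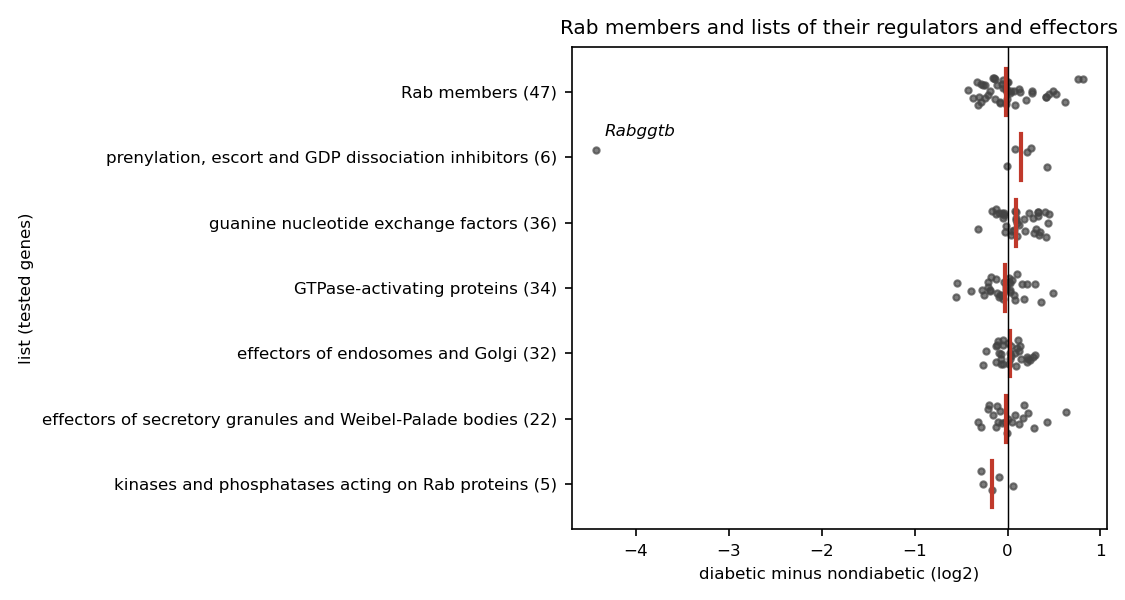
Difference between diabetic and nondiabetic arrays (log2, horizontal axis) for each tested gene of the Rab family and of 6 lists of their regulators and effectors; dots are genes, spread vertically for sight, red bars are list medians, and the number of tested genes is in parentheses. Rabggtb at -4.43 stands alone on the left, and the medians lie between -0.17 and 0.15.

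The remaining Rab genes were dim or had further probe sets. The 11 dim genes were Rab3b, Rab7b, Rab25, Rab26, Rab30, Rab33a, Rab34, Rab39, Rab39b, Rab40b and Rab42, with mean levels of 3.67 to 5.06 and differences of -0.26 to 0.17, and the groups overlapped for all of them. At the limit, Rab28 just inside stood at 5.22 and Rab30 just outside at 5.06. Rab4b was named only by probe sets shared with other genes and is not among the 58; on the brighter one, shared with Mia, it stood at 6.19 ± 0.18 in diabetic and 6.45 ± 0.25 in nondiabetic cells (SD, n = 3 each). For 7 of the 58 genes there was more than 1 probe set. Those of Rab8a differed alike, by 0.20 and 0.17, and those of Rab6b by 0.26 and 0.51. For Rab20 the probe sets had opposite signs, at -0.14 and 0.14, as they did for Rab3d, at -0.16 and 0.04, and for the dim Rab39b, at -0.13 and 0.05. Those of Rab3c differed by 0.26 and, on a dim probe set, 0.08. The 3 probe sets of Rab11b differed by -0.01, -0.16 and -0.38.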

How the data were processed

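The table deposited by the authors holds log2 expression values from RMA, a method that corrects background, equalises the arrays and combines probes, per the submitters' processing notes. Its software version is not given here. Per the labels' protocols, the Ovation Pico WTA System V2 amplified the RNA. The 41345 probe sets ranged from 2.16 to 13.30, with array medians of 5.21 to 5.28, so genes were not centred.

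The platform annotation, possibly outdated, gave 1 gene for 23521 probe sets, several for 1814 and none here for 16010. All 58 Rab genes matched the RefSeq table (GRCm38.p6) by gene number. Genes below the 40th percentile of mean level, 5.07, were left out as dim. limma 3.58.1 (R 4.3.3; lmFit, eBayes, 6 arrays, no covariates), tested on simulated data, compared the groups, and the Benjamini-Hochberg adjustment ran over all 13308 tested genes. In the simulated data 200 genes were changed. The fit called 32.7% of them at a log2 change of 1 and 89.8% at 2, so it would miss most changes of 1 or less. The simulated noise was independent for each gene, without array effects, and recovery with fewer changed genes was not simulated. These shares may therefore be too high for the real arrays. Pairs had exact permutation tests (scipy 1.17.1). The number of arrays, 3 per group, limits the precision.

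The members, role groups, lists and tests were chosen with earlier results of these data known. The rule named the 10 Rab genes with the smallest p, the brightest tested gene of each role, 8 Rab genes of interest in endothelium, the 2 genes with the smallest p and the brightest gene of each pathway list, and the brightest gene of each marker list. Other genes given with values, among them Rab10, Rab27b, Rab29, Rab5b, Rab1b, Rab2b, Rab9 and Rab9b, were chosen after their values were seen.

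Alternatives changed the filter (none, or the 60th percentile), the choice of probe set (their mean, or each alone), the scaling (quantile again, or median centring), the fit (trended robust variances, array weights, or a block for replicate number) and the arrays (each omitted once).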

Additional observations from a re-analysis of the deposited data

How the results depend on the processing

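Across the 15 alternatives no Rab gene passed the adjusted limma test, and the lowest adjusted p of a Rab gene was 0.47. Over all tested genes 1 was called, Rabggtb, but 0 with the filter at the 60th percentile, and 0 to 1 with an array left out. In both cases with 0 the filter had removed Rabggtb, which was called in the 13 alternatives that tested it. All of these rest on the same probe set, whose diabetic level of 3.32 was under the limit for dim genes. The other probe set, shared with a small nucleolar RNA, differed by -0.29 (SE 0.22) and was in none of them. At an unadjusted p under 0.05, the Rab genes lower in diabetes numbered 1 with quantile normalization again and 2 with array weights, and 0 to 1 with an array left out, where those higher numbered 2 to 5. Without nondiabetic replicate 1 only Rab32 and Rab35 of the latter remained. Groups that did not overlap numbered 1 for lower Rab genes with quantile normalization again and 1 with median centring. With an array left out, where fewer arrays make separation easier, they numbered 5 to 9 for higher and 3 to 8 for lower Rab genes. The median Rab difference lay between -0.06 and -0.0020 with an array left out.

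Rab35 and Rab32 kept an unadjusted p under 0.05 in all 15 alternatives, and with an array left out their differences were 0.44 to 0.53 and 0.55 to 0.95. Rab38 did so in 13, Rab44 in 12 and Rab5c in 8. Rab38 was at 0.51 without diabetic replicate 3 and 0.41 without nondiabetic replicate 1, where its p was above 0.05, and Rab44 ranged from 0.54 without nondiabetic replicate 1 to 1.10 without nondiabetic replicate 3.

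Of 22 named Rab genes 7 changed sign. With array weights the values were 0.10 for Rab21, 0.015 for Rab11b, 0.039 for Rab27a and 0.047 for Rab11a, and Rab3d was at 0.044 on its other probe set. With an array left out they ran from -0.21 to 0.15 for Rab21, -0.10 to 0.11 for Rab11b, -0.51 to 0.23 for Rab27a, -0.14 to 0.032 for Rab11a, -0.22 to 0.43 for Rab4a and -0.19 to 0.10 for Rab13. Of the other genes, with quantile normalization again Tbc1d20 was at -0.0077, Cd63 at -0.0047 and Ppbp at -0.0080, and with array weights Tbc1d20 was at -0.050, Vps35 at -0.013, Ppbp at -0.012 and Nkg7 at 0.16. With an array left out the ranges were -0.065 to 0.19 for Gdi2, -0.18 to 0.17 for Tbc1d20, -0.060 to 0.21 for Vps35, -0.072 to 0.16 for Cd63, -0.22 to 0.094 for Map3k7, -0.34 to 0.046 for Cdh5, -0.22 to 0.32 for Ppbp, -0.055 to 0.35 for Prss34, -0.32 to 0.18 for Nkg7 and -0.28 to 0.17 for Car1. The cause of these moves was not tested.

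The replicate numbers do not pair the arrays: the correlation of deviations from the group means of same-numbered arrays was -0.04, -0.06 and 0.02, and the labels name no shared source. With the replicate block 4 Rab genes had an unadjusted p under 0.05, where 5 did without it, and 0 passed the adjusted test. Rab28 and Tbc1d9 lay near the limit for dim genes, where signal over background limits what a difference can show.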
